A study of Mus musculus with 4 samples.

Results

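The genes described here are the Slc25a genes, the family of carrier proteins that sit mainly in the inner membrane of mitochondria. They were chosen by name alone: every row of the count table whose mouse symbol starts with Slc25a, which gave 48 of 56953 rows. Of these, 47 are carrier genes and 1 is a pseudogene, Slc25a5-ps. Counts were deposited for 4 mouse liver libraries, all from 2-month-old mice on a normal diet with both alleles of Ubc13 (gene symbol Ube2n, which makes K63-linked chains of ubiquitin) flanked by loxP sites. The control group holds 2 libraries that are Alb negative and the deletion group 2 libraries that are Alb positive, read here as carrying a Cre transgene under the albumin promoter. That promoter is active mainly in hepatocytes, and other liver cells may keep the gene. The series addresses how loss of this enzyme bears on fatty liver disease, mitophagy and cell death.

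The inner mitochondrial membrane is closed to most metabolites, and each carrier of this family moves a small set of them across it. ADP enters and ATP leaves through the ADP/ATP carriers, phosphate through its own carrier, and citrate, malate, aspartate, ornithine, acylcarnitines, glutathione, folate, NAD and iron each through others. In hepatocytes these steps link the mitochondrion to gluconeogenesis, urea synthesis, fat synthesis and fat oxidation. The carriers are encoded in the nucleus and made in the cytosol, and most are inserted into the inner membrane by a dedicated import complex.

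The libraries held 16270424 to 17800138 counts. Values below are CPM (counts per 1e6 counts) scaled with TMM factors, and because a 3' library reads 1 stretch per transcript, a CPM follows the number of transcripts rather than their length. Ube2n itself had 41.3 and 44.9 CPM in the controls against 5.88 and 5.97 CPM after deletion. Whether the numbered replicates are different animals is not stated in the labels, so p-values speak only of the spread among these libraries, which may be technical between the controls. Y-linked transcripts (4 genes summed) were at 143 and 152 CPM in the controls, at 0 CPM in deletion replicate 1 and at 90.3 CPM in deletion replicate 2, so the deletion libraries are not repeats of 1 RNA sample. Xist, the RNA of the inactive X chromosome, was at 0.555 and 0.137 CPM in the controls against 527 and 200 CPM after deletion. Sex is not given in the labels. The controls thus had the transcripts of males, deletion replicate 1 those of a female, and deletion replicate 2 held both kinds. Whether deletion replicate 2 mixes RNA of several animals was not tested. Deletion and sex cannot be told apart in this design, which holds for every fold change below. All 7 hepatocyte markers were lower in both deletion libraries than in either control, with summed levels of 143550 to 146022 CPM against 56524 to 60695 CPM. Most of the sum was Alb, at 119049 and 114960 CPM in the controls against 45310 and 42886 CPM after deletion. In the edgeR test described below, Ttr and Serpina1c passed and 5 did not, among them Alb and Hnf4a (edgeR adjusted p = 0.0612 and 0.520). Of all tested genes, 56% did not overlap between groups in either direction. In bulk samples, fewer cells of a type and less RNA per cell cannot be told apart.

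Over all 48 genes, the Slc25a transcripts made up 0.476% and 0.427% of the counts in the controls against 0.458% and 0.423% after deletion, so the raw shares overlapped between groups. Scaled by TMM, their summed level was 5227 and 4776 CPM in the controls against 4259 and 3722 CPM after deletion. The 2 measures differ because TMM factors were 0.912 and 0.896 in the controls against 1.076 and 1.137 after deletion. The scaled sum of all genes was lower too, at 1098070 and 1117780 CPM in the controls against 930277 and 880733 CPM after deletion. The ratio of the mean sums, deletion over control, was 0.817 for all genes and 0.798 for the Slc25a genes. The 10 most abundant members held 69.6% to 75.1% of the family's counts in each library. These were, from the highest mean level down, Slc25a47, Slc25a5, Slc25a15, Slc25a39, Slc25a3, Slc25a23, Slc25a25, Slc25a22, Slc25a13 and Slc25a10. Means over the 4 libraries ran from 462 CPM for Slc25a47 and 456 CPM for Slc25a5 down to 224 CPM for Slc25a10. Adjacent ranks such as the first and second differed by less than the spread between libraries.

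A filter on low counts kept 41 members for the test, and 7 fell below it. Slc25a41 and Slc25a54 had 0 counts in every library, which allows at most 0.154 to 0.206 CPM (3 counts in a library, counting error only). The germ cell ADP/ATP carrier Slc25a31 had 7 and 1 counts in the controls and 0 in both deletion libraries. The glutamate carrier Slc25a18, the ornithine carrier Slc25a2, Slc25a43 and the pseudogene Slc25a5-ps had between 0 and 14 counts per library. These 7 genes were too low for a comparison.

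Of the 41 tested members, 1 was called higher and 1 lower in the deletion libraries (edgeR quasi-likelihood test, Benjamini-Hochberg adjusted p under 0.05 over all 14600 tested genes). Slc25a4, an ADP/ATP carrier, rose 2.59-fold, and Slc25a32, the carrier of folate and FAD, fell 1.82-fold. Of all tested genes 6.57% were called, 4.41% higher and 2.16% lower, so the share of called carriers, 4.88%, was near that of all genes. With library sizes alone in place of TMM, 1562 genes were called higher and 202 lower, against 644 and 315 here. That scaling raised the median of all genes by 0.29 on the log2 scale, from 0.00 to 0.29.

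The other 39 tested carriers did not pass. A negative log2 fold change was found in 32 of the 41 tested members (78.0%) against 50.4% of all tested genes, and the median was -0.30 against 0.00. With library sizes alone 21 of 41 were negative and the median was -0.010, where the median of all genes was 0.29. A change of scaling moves all genes by nearly the same amount, so the distance between carriers and all genes had to stay near -0.30. The agreement of the scalings is therefore no check of that distance. Without deletion replicate 2 the carriers' median was -0.18, or -0.16 relative to all genes. Without deletion replicate 1 it was -0.41, or -0.40 relative to all genes. The distance was -0.28 without control replicate 1 and -0.33 without control replicate 2. Levels did not overlap between groups for 23 members (56.1%), 3 with the deletion libraries above and 20 below. Of all tested genes 56% did not overlap, 4185 above and 3984 below. At an unadjusted p under 0.05, 2 members were higher and 11 lower, against 2038 and 1528 of all tested genes.

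**Figure D1:**
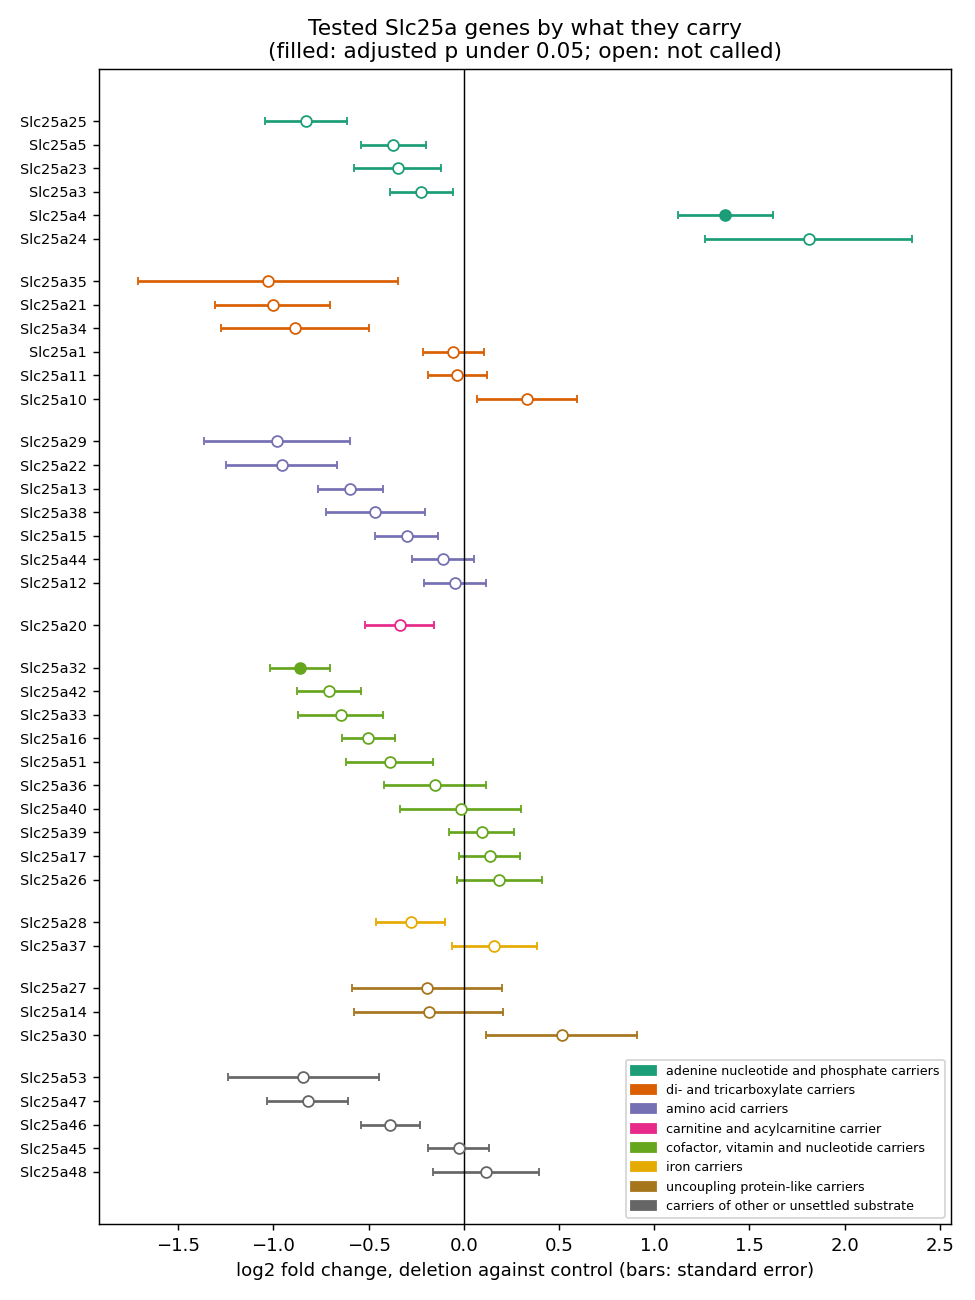
Log2 fold change of 40 of the 41 tested Slc25a genes (x axis, deletion against control, bars give the standard error), grouped by what they carry. Filled points are Slc25a4 and Slc25a32, the 2 genes with an adjusted p under 0.05, and 31 of the 40 points lie left of 0.

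The adenine nucleotide and phosphate carriers held the 2 largest positive differences of the family. Slc25a4 (ENSMUSG00000031633, chromosome 8 from 46206797 to 46211284, minus strand) encodes the ADP/ATP carrier isoform typical of heart and skeletal muscle. It was at 39.0 and 23.8 CPM in the controls against 85.3 and 77.8 CPM after deletion, from 633, 347, 1552 and 1511 counts. Both deletion libraries were above both controls, and the gap was wider than the spread within either group. The means were 31.4 ± 10.8 and 81.5 ± 5.3 CPM (SD, n = 2 each), and the log2 fold change was 1.37 ± 0.25 (SE, edgeR adjusted p = 0.0323). The call was lost without deletion replicate 1 (edgeR adjusted p = 0.0838) or without deletion replicate 2 (0.0895), while the log2 fold change stayed between 1.06 and 1.77 in every alternative.

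Slc25a5 (ENSMUSG00000016319, X chromosome from 36795651 to 36798807) encodes the ADP/ATP carrier isoform of most dividing and non-muscle cells and was the more abundant one in every library. It was at 496 and 532 CPM in the controls against 431 and 365 CPM after deletion, which did not pass (log2 fold change -0.37 ± 0.17, edgeR adjusted p = 0.251). Within a library, the share of Slc25a4 in the summed counts of the pair does not depend on scaling. That share was 7.29% (95% exact binomial interval 6.76 to 7.86) and 4.29% (3.86 to 4.75) in the controls. In the deletion libraries it was 16.5% (15.8 to 17.3) and 17.6% (16.8 to 18.4). The groups did not overlap in this share. Slc25a5 has processed copies such as Slc25a5-ps that may take some of its reads, and the counting rule for such reads is unknown. No share was tested, because an exact two-sided permutation test of 2 libraries against 2 cannot go below p = 0.333.

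Cell type markers differed in direction in the same libraries. Of 6 cholangiocyte markers, 3 were above the controls in both deletion libraries, and Spp1 and Sox9 of these rose (edgeR adjusted p = 0.00188 and 0.0124). The other 3, Krt19, Krt7 and Epcam, overlapped between groups with negative log2 fold changes (-2.62, -1.54 and -0.77), and none of these passed. The 6 summed to 62.9 to 110 CPM in the controls against 1352 to 1944 CPM after deletion, of which Spp1 alone made 1327 and 1916 CPM. Macrophage markers were above the controls in 6 of 7 cases (85.7%, where 56% of all tested genes did not overlap in either direction). Their sums were 287 to 390 CPM against 621 to 745 CPM. Only Cybb of the 7 passed, at 13.1 and 17.3 CPM in the controls against 183 and 190 CPM after deletion (edgeR adjusted p = 0.00188). The part of cholangiocytes and macrophages in the Slc25a4 difference was not tested. Muscle markers were at or near 0: Ckm and Myh4 had 0 counts in every library, Acta1 and Myl1 1 count in 1 control each, and the 6 markers summed to 0.550 to 0.864 CPM.

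**Figure D2:**
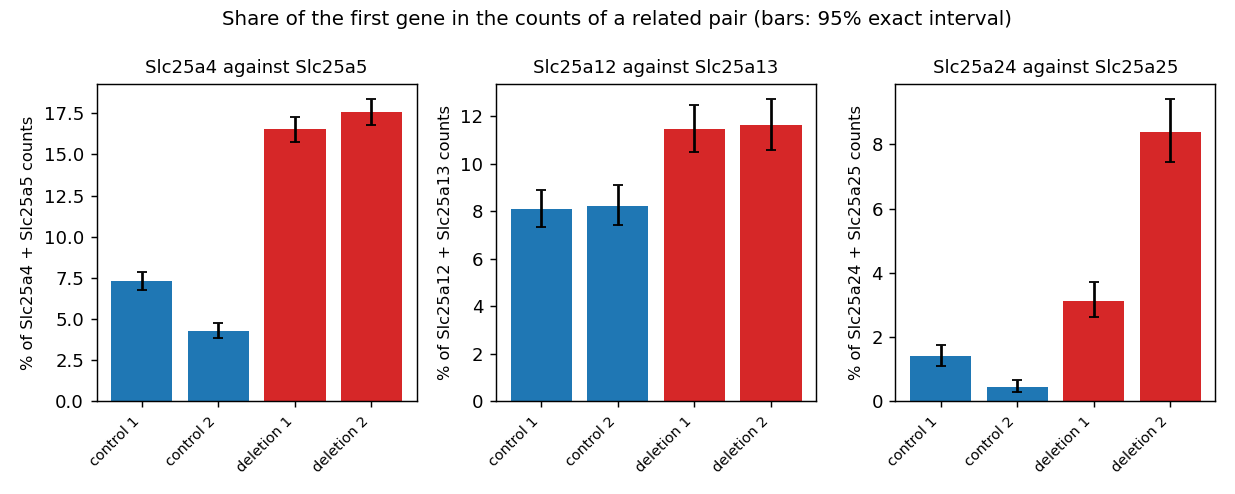
Share of the first gene in the summed counts of 3 related pairs (y axes, percent, each starting at 0; bars are single libraries and error bars 95% exact binomial intervals). Slc25a4 is at 4.29% to 7.29% in the controls and at 16.5% to 17.6% in the deletion libraries, and Slc25a12 and Slc25a24 also take larger shares there. Pairs not drawn went either way. Shares overlapped between groups for Slc25a37 with Slc25a28, Slc25a10 with Slc25a1, Slc25a39 with Slc25a40 and Slc25a22 with Slc25a13. They did not for Slc25a24 or Slc25a25, each with Slc25a23.

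Among the carriers that exchange ATP-magnesium for phosphate and are regulated by calcium, the members differed in direction. Slc25a24 was the least abundant of the 3 tested, at 4.19 and 1.51 CPM in the controls against 6.81 and 13.4 CPM after deletion. Its log2 fold change of 1.81 ± 0.54 was the largest positive one of the family and did not pass (edgeR adjusted p = 0.110). Each group spread about 2-fold or more, and leaving out control replicate 1 or 2 gave adjusted p of 0.00118 and 0.0450 (edgeR), with log2 fold changes of 2.73 and 1.27. Leaving out deletion replicate 1 or 2 gave 0.0944 and 0.422 (2.21 and 1.25). Slc25a25, a strongly expressed member, was at 296 and 338 CPM in the controls against 211 and 146 CPM after deletion (log2 fold change -0.83 ± 0.22, edgeR adjusted p = 0.0807, and from 0.0253, without control replicate 1, to 0.333 on leaving out each library in turn). Both deletion libraries lay below both controls for Slc25a25. Slc25a24 took 1.40% and 0.446% of the summed counts of these 2 genes in the controls against 3.13% and 8.39% after deletion. Slc25a23 was at 309 and 283 CPM in the controls against 281 and 185 CPM after deletion (-0.35 ± 0.23, edgeR adjusted p = 0.414), and 1 deletion library lay close to the lower control. The phosphate carrier Slc25a3, which feeds ATP synthase, was at 331 and 330 CPM in the controls against 309 and 258 CPM after deletion (-0.22 ± 0.17, adjusted p = 0.471, and 0.07 with library sizes alone).

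**Figure D3:**
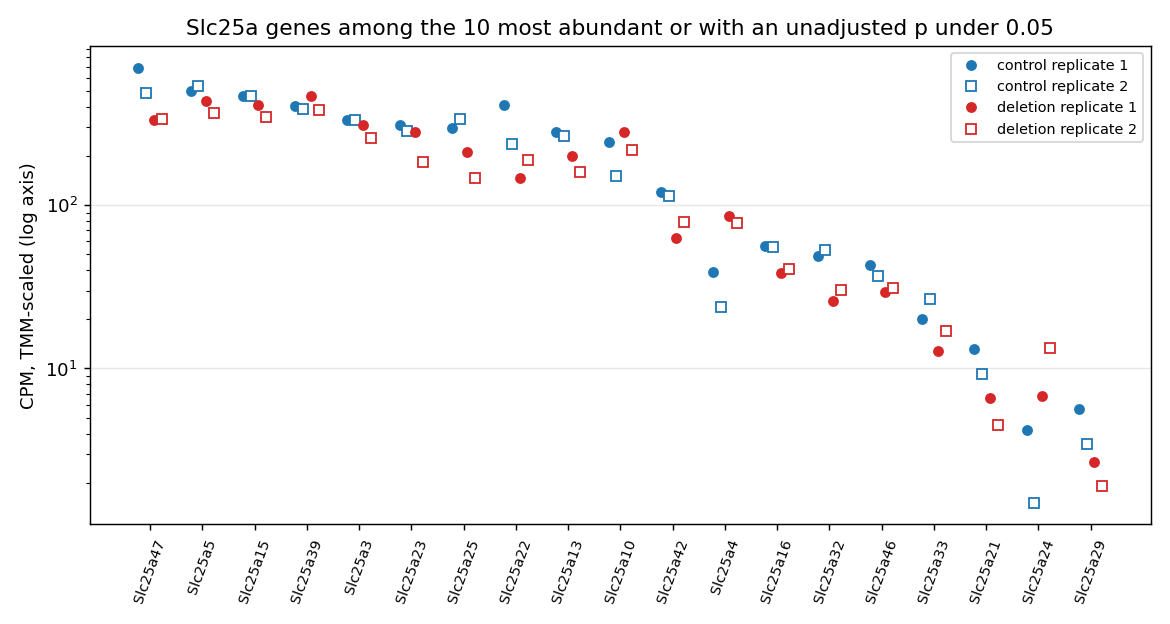
CPM in each library (y axis, TMM-scaled, log axis) for the 19 Slc25a genes that were among the 10 most abundant or had an unadjusted p under 0.05, in order of mean level. Slc25a4 and Slc25a24 are the 2 genes with both deletion libraries (red) above both controls (blue), while Slc25a10 and Slc25a39 overlap.

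The 11 tested cofactor, vitamin and nucleotide carriers included the member that fell, and 10 did not pass. Slc25a32 (ENSMUSG00000022299, chromosome 15 from 39091231 to 39112716, minus strand) was at 48.7 and 53.1 CPM in the controls against 25.8 and 30.3 CPM after deletion, from 790, 773, 469 and 588 counts. Both deletion libraries were well below both controls, with means of 50.9 ± 3.1 and 28.0 ± 3.2 CPM (SD, n = 2 each). The log2 fold change was -0.86 ± 0.16 (SE, edgeR adjusted p = 0.0329). It lost its call without deletion replicate 1 (edgeR adjusted p = 0.140), without deletion replicate 2 (0.108), with library sizes alone (0.0818, log2 fold change -0.57) and with a replicate block (0.0740).

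The coenzyme A carrier Slc25a42 had the next lowest adjusted p of the family without passing, at 120 and 113 CPM in the controls against 63.1 and 79.3 CPM after deletion (-0.71 ± 0.17, edgeR adjusted p = 0.0642, and from 0.0276, without control replicate 2, to 0.269 on leaving out each library in turn). Slc25a16 was at 56.1 and 55.2 CPM in the controls against 38.2 and 40.3 CPM after deletion (-0.50 ± 0.14, edgeR adjusted p = 0.0927). The pyrimidine nucleotide carrier Slc25a33 was at 20.0 and 26.8 CPM in the controls against 12.9 and 17.0 CPM after deletion (-0.65 ± 0.22, edgeR adjusted p = 0.146, and from 0.0281, without control replicate 1, to 0.460 on leaving out each library in turn). In these 3 genes every deletion library was below every control. Of the 11 tested carriers of this group, 6 did not overlap (54.5%), near the 56% of all tested genes. Slc25a39, the abundant carrier of glutathione, overlapped between groups at 403 and 389 CPM in the controls against 462 and 383 CPM after deletion (0.09 ± 0.17, edgeR adjusted p = 0.795, and -0.059 without deletion replicate 1). Its scarce relative Slc25a40 was at 3.85 to 5.68 CPM over all libraries. The NAD carrier Slc25a51, at 110 to 192 CPM over all libraries, overlapped too, as did the peroxisomal carrier Slc25a17 and Slc25a36. Slc25a26, which imports the methyl donor S-adenosylmethionine, had both deletion libraries above both controls by a small margin (0.19 ± 0.22), and an exon of Lrig1 on the other strand lies at its 3' end.

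None of the 7 tested amino acid carriers passed the test. Their log2 fold changes were all negative (median -0.47). With library sizes alone 5 of 7 were negative (median -0.18), where the median of all genes was 0.29. Levels of 4 of 7 (57.1%) did not overlap between groups, against 56% of all tested genes. The test was edgeR's, 0 members were higher and 3 lower at an unadjusted p under 0.05, DESeq2 called Slc25a13 and Slc25a22, and limma-voom called 0. Slc25a13 encodes citrin, the aspartate/glutamate carrier of liver that serves the malate-aspartate shuttle and the urea cycle. It was at 279 and 263 CPM in the controls against 198 and 160 CPM after deletion (-0.60 ± 0.17, edgeR adjusted p = 0.0991). Its relative Slc25a12, the form of muscle and brain, was at 24.6 and 23.6 CPM in the controls against 25.6 and 21.05 CPM after deletion. The share of Slc25a12 in the pair's counts was 8.10% (7.35 to 8.90) and 8.22% (7.40 to 9.09) in the controls and 11.4% (10.5 to 12.5) and 11.6% (10.6 to 12.7) in the deletion libraries. The shares thus differed between groups by more than within them, while the level of Slc25a12 itself overlapped.

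Slc25a22, a glutamate carrier, was at 412 and 238 CPM in the controls against 146 and 188 CPM after deletion (-0.96 ± 0.29, edgeR adjusted p = 0.112). Its 2 controls lay further apart than its deletion libraries, and without control replicate 2 the adjusted p was 0.00126 with a log2 fold change of -1.30, against 0.203 and -0.51 without control replicate 1. Without deletion replicate 1 or 2 the adjusted p was 0.331 and 0.230. Slc25a15, which exchanges ornithine for citrulline in the urea cycle, was at 462 and 465 CPM in the controls against 407 and 347 CPM after deletion (-0.30 ± 0.17, edgeR adjusted p = 0.332). Slc25a38, a glycine carrier needed for haem synthesis, was at 25.0 and 32.8 CPM in the controls against 25.7 and 16.3 CPM after deletion, which overlapped. Slc25a44, a carrier of branched-chain amino acids, overlapped as well at 67.8 to 84.1 CPM over all libraries.

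Of the 6 di- and tricarboxylate carriers and their relatives, 0 passed the test with edgeR, DESeq2 or limma-voom, and 0 were higher and 1 lower at an unadjusted p under 0.05 in edgeR. The citrate carrier Slc25a1, which exports citrate for fat synthesis, was at 214 and 191 CPM in the controls against 182 and 208 CPM after deletion, and the dicarboxylate carrier Slc25a10 at 244 and 152 CPM against 280 and 218 CPM (0.33 ± 0.26, edgeR adjusted p = 0.5003). Both overlapped between groups, as did the oxoglutarate carrier Slc25a11 at 78.1 to 92.7 CPM over all libraries. The 3 least abundant members had every deletion library below every control, a share (50%) near the 56% of all tested genes that did not overlap. Slc25a21, a carrier of oxoadipate, was at 13.1 and 9.21 CPM in the controls against 6.59 and 4.53 CPM after deletion (-1.004 ± 0.301, edgeR adjusted p = 0.110, and from 0.0141, without control replicate 2, to 0.405 on leaving out each library in turn). Reads of Slc25a21 are uncertain, because an exon of Pax9 on the other strand lies in its last 500 bases and the strand setting of the counting is unknown. The other 2, Slc25a34 and Slc25a35, had log2 fold changes of -0.89 ± 0.39 and -1.03 ± 0.68. Slc25a35 had 25 and 16 counts in the controls against 19 and 5 after deletion, and its groups lay apart by a narrow margin (1.10 against 1.04 CPM).

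Slc25a20, the carnitine/acylcarnitine carrier that brings long-chain fatty acids into the matrix for oxidation, was at 128 and 131 CPM in the controls against 117 and 88.3 CPM after deletion. Its log2 fold change of -0.34 ± 0.18 did not pass (edgeR adjusted p = 0.317). The iron carriers overlapped between groups. Slc25a37, the mitoferrin known from red cell precursors, was at 45.8 and 51.4 CPM in the controls against 65.2 and 43.3 CPM after deletion, and Slc25a28, the broadly expressed mitoferrin, at 26.5 and 21.2 CPM against 21.2 and 18.1 CPM. Erythroid markers (7 genes summed) were at 1469 and 769 CPM in the controls against 1027 and 388 CPM after deletion, and their part in the Slc25a37 values was not tested. The 3 carriers resembling uncoupling proteins, Slc25a14, Slc25a27 and Slc25a30, overlapped as well, with Slc25a30 at 12.9 and 30.2 CPM in the controls against 25.6 and 35.9 CPM after deletion.

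Slc25a47, a carrier expressed mainly in liver, was the most abundant member in control replicate 1 and lay lower in the deletion libraries, without passing the test. It was at 693 and 486 CPM in the controls against 330 and 338 CPM after deletion (-0.82 ± 0.21, edgeR adjusted p = 0.0793). Leaving out each library in turn gave adjusted p from 0.00688 (without control replicate 2) to 0.273 (without deletion replicate 2) and log2 fold changes from -1.05 to -0.55 (without control replicate 1). The controls differed from each other by more than the deletion libraries did, and both controls were above both deletion libraries. Its neighbour Slc25a29, a carrier of basic amino acids, was at 5.61 and 3.44 CPM in the controls against 2.69 and 1.90 CPM after deletion (-0.98 ± 0.38, edgeR adjusted p = 0.186). The 2 genes lie head to head on chromosome 12, Slc25a29 on the minus strand from 108825873 to 108835883 and Slc25a47 on the plus strand from 108836046 to 108856815. Only 162 bases separate them, but RefSeq places the start of the Slc25a47 mRNA 15.3 kb from that of Slc25a29.

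Of the other carriers without a settled place, Slc25a46, an outer membrane protein linked to mitochondrial shape, was at 42.7 and 36.6 CPM in the controls against 29.4 and 31.3 CPM after deletion (-0.39 ± 0.15, edgeR adjusted p = 0.195). The X-linked Slc25a53 was at 1.97 and 1.65 CPM in the controls against 0.934 and 1.08 CPM after deletion. Both genes had every deletion library below every control and did not pass. With Slc25a47, 3 of the 5 tested carriers of other or unsettled substrate did not overlap (60%), near the 56% of all tested genes. Slc25a45 and Slc25a48 overlapped between groups, at 15.7 to 27.9 CPM over both genes and all libraries.

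The neighbours Slc25a29 and Slc25a47 lay below the controls in both deletion libraries. Neither passed the test, and 56% of all tested genes did not overlap in either direction. The 250 bases before each RefSeq start of these neighbours are shown (GRCm38.p6, 5′ to 3′ on the strand of each gene, chr12:108835877-108836126 for Slc25a29 and chr12:108850879-108851128 for Slc25a47). Capitals mark the CCAAT box (CCAAT) and the GC box (GGGCGG), searched on both strands.
Slc25a29: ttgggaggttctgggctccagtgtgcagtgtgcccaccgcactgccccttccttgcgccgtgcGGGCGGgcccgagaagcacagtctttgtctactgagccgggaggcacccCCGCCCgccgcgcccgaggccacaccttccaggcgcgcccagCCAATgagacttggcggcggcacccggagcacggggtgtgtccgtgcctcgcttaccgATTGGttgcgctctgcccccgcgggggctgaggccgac
Slc25a47: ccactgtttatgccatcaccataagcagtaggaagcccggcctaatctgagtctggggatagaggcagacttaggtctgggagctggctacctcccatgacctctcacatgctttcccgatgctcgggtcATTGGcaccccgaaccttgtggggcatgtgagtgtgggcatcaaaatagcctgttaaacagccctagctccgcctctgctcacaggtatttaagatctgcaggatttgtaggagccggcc
The Slc25a29 window is 71.2% G or C and holds 2 CCAAT boxes and 2 GC boxes, and the Slc25a47 window is 54.4% G or C and holds 1 CCAAT box and 0 GC boxes.

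RefSeq windows were at hand for 36 of the 48 genes (46 windows, since some genes have several starts). A GC box was found in 69.6% of these windows against 32.7% of all 32851 windows of the genome, a CCAAT box in 45.7% against 33.8%, and the E-box CACGTG in 17.4% against 6.02%. The TATA box TATAAA was found in 4.35% against 12.4%. These matches describe letters in the windows, and none of the 4 motifs contains another. The median window of the genome was 52.4% G or C, and the comparison was not matched for this content. Some windows of the same gene overlap, so 1 site can be counted more than once.

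Another 3 genes of the family with other symbols were tested, outside the 48. Ucp2, an uncoupling protein that is low in resting hepatocytes and higher in macrophages, was at 42.3 and 39.6 CPM in the controls against 82.1 and 69.2 CPM after deletion. It rose by 0.89 ± 0.16 on the log2 scale (edgeR adjusted p = 0.0307), and an exon of Dnajb13 on the other strand lies at its 3' end. The 7 macrophage markers summed to 287 and 390 CPM in the controls against 745 and 621 CPM after deletion. Only Cybb of the 7 passed the test, and the part of macrophages in the Ucp2 difference was not tested. The outer membrane proteins Mtch1 and Mtch2 did not pass, with log2 fold changes of -0.08 ± 0.16 (0.21 with library sizes alone) and -0.40 ± 0.14. Ucp1 had at most 1 count in a library and Ucp3 had 0.

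None of the 10 genes of the import machinery for carriers was called (0 by edgeR, DESeq2 and limma-voom, and 2 lower and 0 higher at an unadjusted p under 0.05 in edgeR). Their log2 fold changes ran from -0.64 to 0.04 with a median of -0.24 (0.046 with library sizes alone, where the median of all genes was 0.29). The 2 with an unadjusted p under 0.05 were Timm9 and Timm10, the small chaperones that escort carriers across the intermembrane space. Timm9 was at 27.0 and 33.4 CPM in the controls against 22.6 and 16.2 CPM after deletion, and Timm10 at 19.4 and 20.7 CPM against 16.4 and 13.0 CPM.

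Of 17 other transporters and channels of mitochondria, 1 rose and 1 fell, a called share of 11.8% against 6.57% of all genes. With library sizes alone 2 were called higher, Micu2 and Tspo, and 0 lower, where 1764 of all 14600 tested genes were called. The median log2 fold change was -0.06, or 0.24 with library sizes alone, where the median of all genes was 0.29. Micu2, a regulator of the calcium uniporter, was at 50.2 and 36.8 CPM in the controls against 113 and 118 CPM after deletion (1.40 ± 0.19, edgeR adjusted p = 0.0148). Mpc2, a subunit of the pyruvate carrier, was at 231 and 244 CPM in the controls against 140 and 127 CPM after deletion (-0.83 ± 0.15, edgeR adjusted p = 0.0316). Its partner Mpc1 was at 30.5 and 29.9 CPM in the controls against 26.3 and 20.4 CPM after deletion and did not pass (edgeR adjusted p = 0.258).

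Among 26 enzymes whose substrates or products the carriers move, 2 rose, 3 fell and 21 did not pass, a called share of 19.2% against 6.57% of all genes. DESeq2 called 4 higher and 8 lower, and with library sizes alone 3 were higher and 2 lower. Of all 14600 tested genes, DESeq2 called 1647, and 1764 were called with library sizes alone. This list and that of the other transporters were chosen with earlier results of these data known, so neither share is a test. The median log2 fold change was -0.28, or 0.011 with library sizes alone, where the median of all genes was 0.29. The cytosolic aspartate aminotransferase Got1, part of the malate-aspartate shuttle that citrin serves, was at 451 and 479 CPM in the controls against 250 and 174 CPM after deletion (-1.13 ± 0.22, edgeR adjusted p = 0.0354). The urea cycle enzyme Asl fell from 792 and 1016 CPM to 469 and 359 CPM, and the gluconeogenic enzyme Pck1 from 6038 and 5856 CPM to 2869 and 3153 CPM (edgeR adjusted p = 0.0393 and 0.0487). Gpd2, the mitochondrial enzyme of the glycerol phosphate shuttle, rose from 32.5 and 30.5 CPM to 57.8 and 57.2 CPM, and Crat, the carnitine acetyltransferase, from 30.4 and 29.1 CPM to 54.8 and 50.2 CPM (edgeR adjusted p = 0.0241 and 0.0293). Reads of Crat are uncertain, because an exon of Dolpp1 on the other strand lies at its 3' end and the strand setting is unknown. Without deletion replicate 2, all 8 genes called in these companion lists lost their calls, Ucp2, Mpc2, Micu2, Got1, Asl, Pck1, Gpd2 and Crat (edgeR adjusted p from 0.0542 to 0.200). Without deletion replicate 1, 6 did (0.0596 to 0.127), Micu2 and Got1 being the exceptions. With a replicate block, 7 of the 8 did, Micu2 being the exception (0.0678 to 0.0842). With library sizes alone Mpc2 and Pck1 lost their calls (edgeR adjusted p = 0.0583 and 0.0706).

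**Figure D4:**
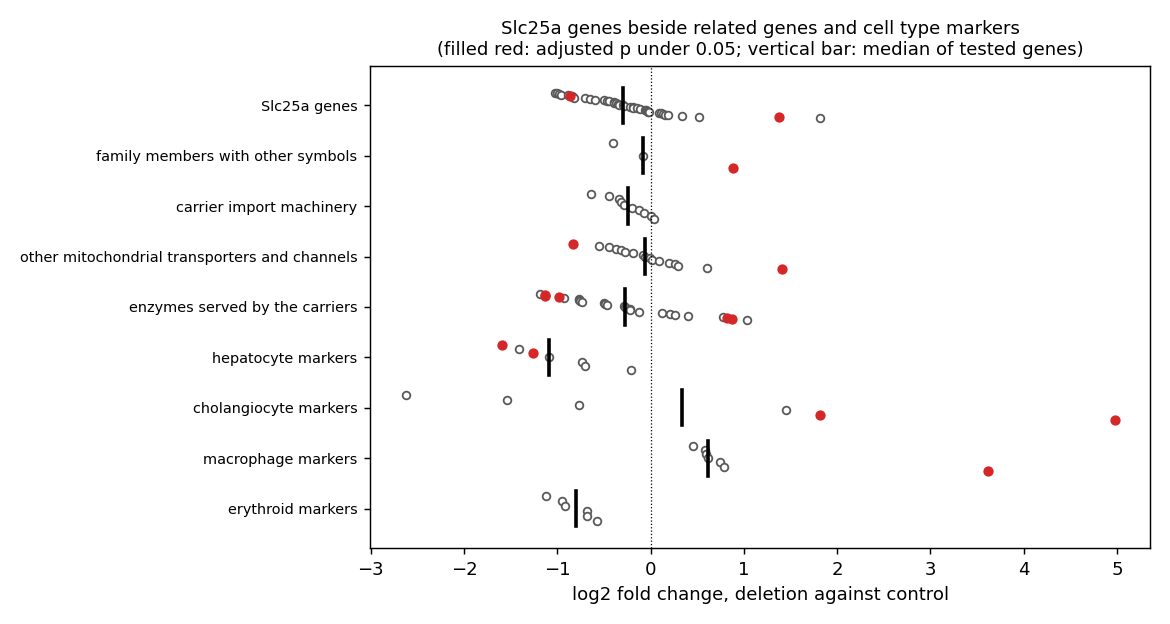
Log2 fold change of each tested gene (x axis, deletion against control) in the Slc25a family, in related mitochondrial lists and in marker lists of liver cells. Red points have an adjusted p under 0.05 and vertical bars are medians, which lie at -0.30 for the Slc25a genes and at -1.09 for the hepatocyte markers.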

How the data were processed

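Per the labels' protocols, liver RNA was turned into QuantSeq 3' libraries, sequenced on a NextSeq 550 (75 bp, single-end), aligned with Bowtie2 and compared by the submitters with edgeR. The library protocol speaks of primary hepatocyte RNA while the source is given as liver. The builds mm10 and GRCm38 stand in the submitters' processing notes. How reads were assigned to genes, with which strand setting and annotation, is not given in the sources used here. Deposited values are raw counts by Ensembl gene in 1 file with 4 columns, each matched to a sample by its label, and 0 other columns of values.

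Symbols and coordinates came by identifier from GENCODE M21 (GRCm38), which matched 52029 of 56953 rows. Groups were compared in R 4.3.3 with the edgeR 4.0.16 quasi-likelihood test on the whole table, with TMM scaling, filterByExpr (minimum count 10, total 15; 14600 genes kept) and Benjamini-Hochberg adjustment. Standard errors were derived from each log2 fold change and its F statistic (size divided by the root of F). The procedure was tested on simulated data. Replicates of a group differed beyond counting noise (chi-square per degree of freedom 38.9 between controls, 25.3 between deletion libraries). Intervals and floors cover counting error only. Alternatives used DESeq2 1.42.0, limma 3.58.1, other scalings, no filter, a replicate block and leaving out each library.

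The members and lists were chosen with earlier results of these data known. Full values were given for called members, members with an unadjusted p under 0.05 and the 10 most abundant, and for called genes of the companion lists with Ucp2, Mtch1 and Mtch2. Other genes named with values were chosen after those were seen. Of the marker lists not named above, summed CPM overlapped between groups for stellate cells (402 to 517 against 428 to 429) and lymphocytes (2.16 to 3.64 against 2.73 to 4.40), and did not for neutrophils (0.494 to 2.06 against 4.27 to 4.62, Ly6g at 0) and endothelium (200.0 to 229 against 176 to 185). Promoters are RefSeq's (GRCm38.p6). Protein sequences were not used here, and 1 tested member is counted but not reported by name.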

Additional observations from a re-analysis of the deposited data

How the results depend on the processing

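The call of Slc25a4 was kept in 10 of 12 alternatives and that of Slc25a32 in 8 of 12. Of 360 values of named genes under alternatives, 300 kept their direction and side of the threshold, 30 lost a call, 26 gained one and 4 turned direction. Members called higher and lower numbered 1 and 0 with library sizes alone, 2 and 6 with DESeq2, 2 and 9 without a filter, and 1 and 0 with a replicate block. All genes called numbered 1764 with library sizes alone, 1647 with DESeq2, 2768 without a filter and 390 with a replicate block, against 959. The members' median was -0.010 with library sizes alone, where the median of all genes was 0.29. Leaving out 1 library gave 0 to 3 members higher, 0 to 6 lower, 343 to 2081 genes called and a median from -0.41 to -0.18. The lowest member counts, 0 and 0, came without deletion replicate 1 and without deletion replicate 2. In those fits an arm of 1 library is assumed to vary like the other group. The sign turned for Slc25a3 (0.067) and Mtch1 (0.21) with library sizes alone, Mtch1 without control replicate 1 and Slc25a39 without deletion replicate 1. Leaving out 1 library gave -0.210 to 0.066 for Mtch1 and -0.059 to 0.221 for Slc25a39. The cause of these changes was not tested. Deviations of same-numbered libraries correlated at -0.13 across genes. With 2 libraries per group this value cannot show whether the samples were collected or prepared in pairs. With the numbers crossed, chosen after seeing the data, 2 members were called higher and 4 lower. Members under about 10 counts per library could not be compared at this depth.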
